A study of Rattus norvegicus with 11 samples.

Results

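Gene expression in the ipsilateral spinal cord was compared between rats that received paclitaxel, an implanted electrode and spinal cord stimulation (SCS), and naive rats. The group label of each sample chose the libraries: 6 of the 11 libraries in the series, 3 from stimulated rats (named SCS 1, SCS 2 and SCS 5 after their titles) and 3 from naive rats (naive 1 to 3). Only adult male animals were used, with weights of 350 to 400 g. The stimulated rats were given paclitaxel into the peritoneum in doses of 1.5 mg/kg (given on day 1 and again on days 3, 5 and 7), and daily stimulation at 50 Hz with pulses of 0.2 ms. Naive rats had no paclitaxel, electrode or stimulation. Drug, electrode and stimulation therefore differ together between these groups and cannot be told apart. Another group of 5 libraries (sham 1 to 5) had the drug and the electrode without stimulation. Its libraries entered the shared estimate of spread, and its values are given beside those of the contrast. Sample titles use the letter S for the stimulated and X for the sham group; groups were taken from the group label alone.

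Paclitaxel is a cancer drug that binds tubulin and stabilises microtubules, and sensory neurons are among the cells it harms, so that painful neuropathy is a common side effect. SCS applies current over the dorsal columns of the cord, whose large sensory fibres can dampen pain signalling in the dorsal horn. Spinal cord tissue holds neurons, astrocytes, oligodendrocytes, microglia and vascular cells, and whole-tissue RNA mixes all of them.

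The count table lists genes by rat Ensembl ID and does not pair the IDs with gene names. The gene table given with it (RefSeq, 47357 rows) carries 0 Ensembl IDs, so 0 of the 32623 IDs were matched to a symbol, and functions, cell type markers and sequences of the changed genes are not reported. The labelled tissue was not checked against its markers for the same reason. The results below describe the changed genes as groups, by direction, size, read abundance and library, and give 2 IDs that were higher and 2 that were lower.

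Total counts were 17401720 to 56775931 in naive and 18633243 to 29395233 in stimulated libraries. The naive libraries lay close together, with a biological coefficient of variation (the spread between libraries beyond counting error) of 6.96%. This coefficient was 14.4% in stimulated and 11% in sham libraries. The root mean square difference in log2 CPM (each gene's count relative to the scaled library size) was 0.348 to 0.376 between naive libraries and 0.427 to 0.464 between stimulated libraries. Between a naive and a stimulated library it was 0.475 to 0.693, so each pair across the groups differed more than any pair within a group. SCS 2 stood farthest from the naive libraries, at 0.665 to 0.693, and SCS 5 nearest, at 0.475 to 0.531.

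In the stimulated libraries, 1584 genes were higher and 758 lower than in naive libraries, out of 15758 tested (edgeR quasi-likelihood test, adjusted p under 0.05). The genes past the threshold were 14.9% of those tested, 10.1% higher and 4.81% lower. In such whole-tissue libraries, fewer cells of a type and less RNA per cell cannot be told apart. Without naive 2 the numbers were 895 higher and 123 lower, and without SCS 2 they were 949 and 142. Without naive 1 they were 1056 and 170, and without naive 3 they were 999 and 200. The threshold of 0.01 was passed by 854 genes and that of 0.001 by 141, and the smallest adjusted p was 4.39e-05.

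The higher and the lower genes differed in the size of their changes. The median log2 fold change was 0.80 in the 1584 higher genes, with quartiles of 0.43 and 1.45. Among them 647 (40.8%) were at least 2-fold higher, 186 at least 4-fold and 53 at least 8-fold. It was -0.30 in the 758 lower genes, with quartiles of -0.36 and -0.25. Of these, 13 (1.72%) were at least 2-fold lower, 5 at least 4-fold and 1 at least 8-fold, and 238 (31.4%) differed by less than 1.2-fold. The smallest change past the threshold was 0.18 among higher genes and 0.16 among lower genes, in log2 units. Without any 1 library, the median of the called higher genes was 0.76 to 1.04 and that of the called lower genes -0.37 to -0.29. Over all 15758 tested genes, called ones included, the log2 fold changes had a 1st percentile of -0.78 and a 99th percentile of 2.24. Their median was -0.02, against -0.011 with median-ratio and -0.027 with upper-quartile scaling. TMM scaling assumes that most genes do not change, so a median near 0 cannot show whether most genes leaned. After that scaling, the upper tail reached further than the lower tail. Genes not past the threshold had a median of -0.03, with quartiles of -0.15 and 0.11.

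A stricter question is how many genes changed by more than 1.5-fold, rather than by any amount. Tested against that size (edgeR glmTreat, adjusted p under 0.05), 309 genes were higher and 2 lower, together 1.97% of those tested. ENSRNOG00000023387 was 1 of the 2 lower genes. Fold changes of the 309 higher genes began at 0.92 in log2 units, with a median of 1.82. Each of the 311 genes had naive and stimulated libraries that did not overlap, against 36.3% of all tested genes. The test used these same libraries, so this is no separate support for the calls. The count fell to 95, 59 and 54 without naive 1, naive 2 and naive 3 and to 101 without SCS 2. In every one of these fits the higher genes made up over 92% of the calls. All 101 genes called without SCS 2 were among the 311, and they were 32.5% of the 311. Without naive 1, naive 2 and naive 3, 28.9%, 18.6% and 16.7% of the 311 were kept. Each fit shares most libraries with the main fit, so the overlap is no separate support.

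For most other genes the libraries were precise enough to bound the change. The 95% interval of the log2 fold change lay within 1.5-fold in either direction for 10310 genes (65.4% of those tested) and within 2-fold for 12816 genes (81.3%). The share within 1.5-fold differed between classes of mean CPM. It was 0% for genes with a mean under 1 CPM and 29.9% between 1 and 10 CPM. It was 86.6% between 10 and 100 CPM, 93.2% between 100 and 1000 CPM and 88.3% from 1000 CPM up. Of the 309 higher genes past the 1.5-fold test, 19 lay under 1 CPM. Of the 846 genes with a fitted log2 fold change of at least 1, 199 did not pass the test. These had a median SE of 0.60 and a median of 0.924 CPM, against 0.31 and 6.05 CPM in the 647 that passed.

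**Figure D1:**
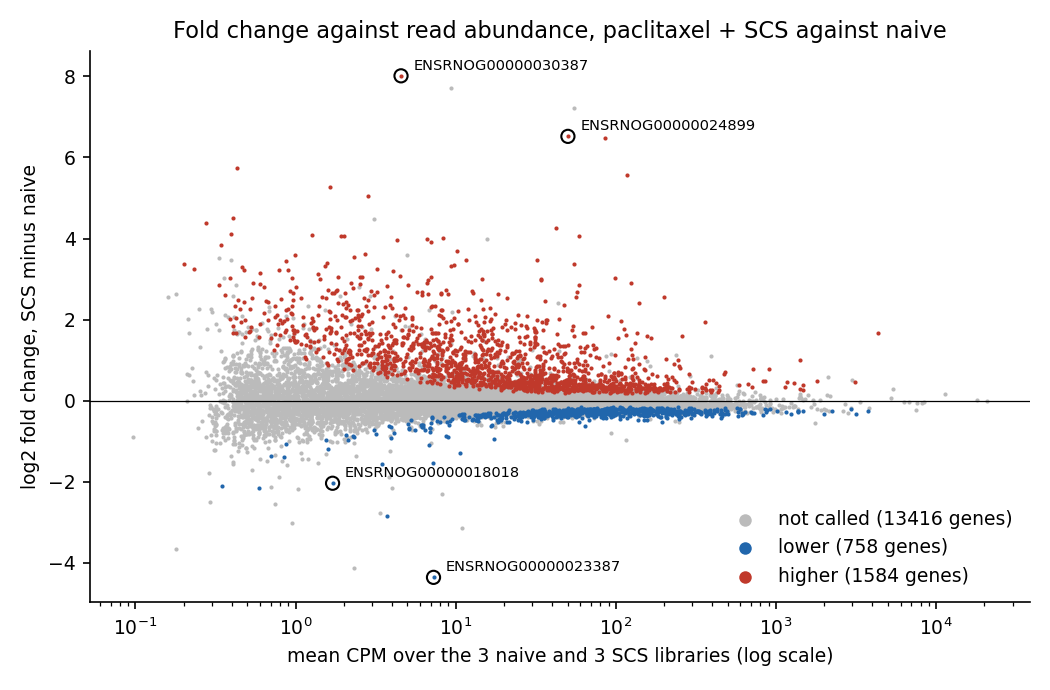
Each point is a tested gene, with its mean CPM over the 3 naive and 3 SCS libraries (log axis) and its log2 fold change. Red points mark the 1584 higher and blue points the 758 lower genes past the threshold, and circles mark the 4 genes given by ID. Higher genes reach large fold changes mainly below 100 CPM, while most lower genes form a narrow band near -0.30.

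Among the called genes, direction also went with read abundance. CPM is not corrected for gene length, so these classes rank genes by reads and not by transcripts. The median of the mean CPM over the 6 libraries was 18.0 for higher genes, 74.5 for lower genes and 19.1 for genes not past the threshold. Below 1 CPM, 76 of 1286 tested genes were higher (5.91%) and 5 lower (0.389%). Between 1 and 10 CPM, 499 were higher and 44 lower, so 91.9% of the changed genes there were higher. Between 10 and 100 CPM that share was 65.1%, with 809 higher and 433 lower genes. Between 100 and 1000 CPM, 190 genes were higher (9.39%) and 264 lower (13%). That last balance of calls depended on which library was left out. Higher genes outnumbered lower genes there without naive 1 (135 and 57), naive 2 (110 and 37), naive 3 (119 and 80) or SCS 2 (101 and 52). They did not without SCS 1 (204 and 251) or SCS 5 (203 and 282). The median log2 fold change over all tested genes of that class stayed negative in each of these fits (-0.0858 to -0.0494).

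The sizes of the higher genes fell from class to class up to 1000 CPM. The median log2 fold change of higher genes was 2.16 below 1 CPM, 1.31 between 1 and 10 CPM, 0.57 between 10 and 100 CPM and 0.36 between 100 and 1000 CPM. The median SE over all tested genes was 0.48, 0.23, 0.09 and 0.07 in these classes, so small changes could pass the test only in well-read genes. Over all tested genes of a class, called or not, the median log2 fold change was 0.03, 0.05, -0.02 and -0.07. Among the 77 genes with at least 1000 CPM, 10 were higher and 12 lower, and the called changes ran from -0.33 to 1.66. The order did not continue there. The median log2 fold change of the higher genes was 0.44, and over all 77 genes the median was -0.095 and the median SE 0.085. None of the lower calls at that level was made without naive 1, naive 2, naive 3 or SCS 2, where 5 to 8 higher genes were called.

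**Figure D2:**
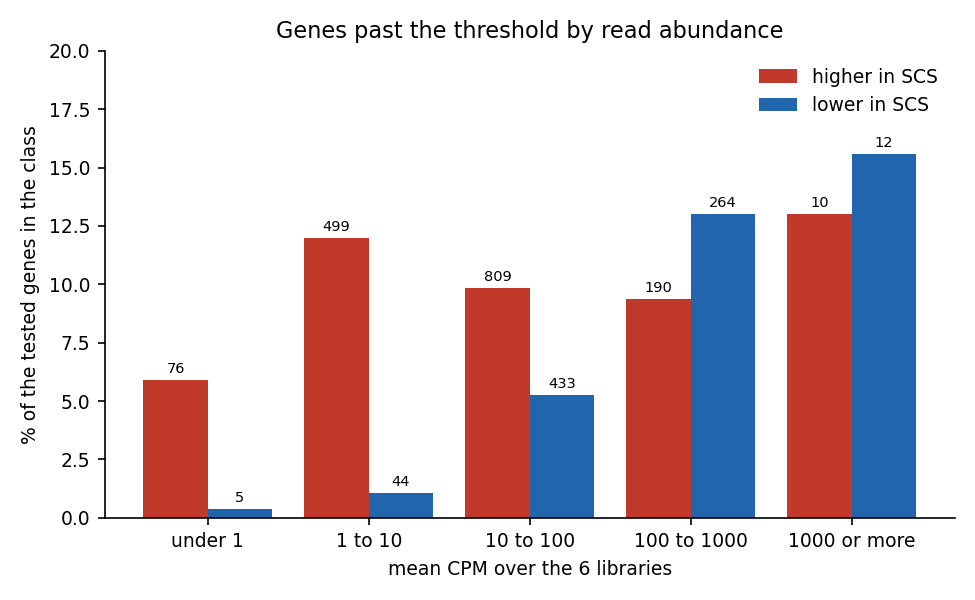
Bars give the share of tested genes past the threshold (y axis, percent) that were higher (red) or lower (blue) in SCS than in naive libraries, by class of mean CPM, with gene numbers above them. Higher genes outnumber lower genes in the 3 lower classes and lower genes outnumber higher genes from 100 CPM up. That balance of calls turned without naive 1, naive 2, naive 3 or SCS 2.

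The separation between libraries describes the asymmetry without a test, on CPM with the same TMM scaling as the fit. Over all tested genes 36.3% had stimulated and naive libraries that did not overlap, and both directions were nearly even, with all 3 stimulated libraries above all 3 naive libraries in 2858 genes and below them in 2855. With a gap of at least 1.2-fold between the nearest libraries, 1145 genes were above and 128 below. With a gap of at least 1.5-fold the numbers were 578 and 20, and with 2-fold 263 and 2. Gaps were taken on log2 CPM with a prior count of 2, which narrows them in low genes. Among the genes past the threshold, 1551 of 1584 higher genes and 749 of 758 lower genes did not overlap. The calls used these same libraries, so this is no separate support for them.

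Genes that were nearly silent in one group and plainly read in the other were few. Under 0.5 CPM in every naive library and over 2 CPM in every stimulated library were 2 genes, 1 of them ENSRNOG00000030387, and 0 genes showed the reverse. With limits of 1 and 2 CPM the numbers were 21 and 1.

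ENSRNOG00000030387 had the highest log2 fold change among the genes past the threshold with at least 1 mean CPM and no overlap. It had 0 counts in naive 1 and naive 2 and 3 counts in naive 3 (0.0525 CPM). In stimulated libraries it had 210 counts in SCS 1 (7.12 CPM), 305 in SCS 2 (16.3 CPM) and 87 in SCS 5 (3.84 CPM). All 3 stimulated libraries were thus above every naive library. The ratio of pooled, size-scaled counts was 280-fold, with a 95% exact counting interval of 95.3 to 1361. That interval covers counting error only. The fitted log2 fold change was 8.02 ± 1.54 (SE, edgeR adjusted p = 0.0104). Because the naive libraries were nearly empty, this value depends on edgeR's default prior count, which is separate from the 2 used for log2 CPM. The 5 sham libraries ran from 0 to 3.14 CPM, with a median of 0.655 CPM, all under the lowest stimulated library.

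ENSRNOG00000024899 came next in log2 fold change by the same rule. Its naive libraries held 1.80, 0.816 and 0.911 CPM, and SCS 1, SCS 2 and SCS 5 held 40.8, 229 and 27.7 CPM. The stimulated libraries lay far above the naive ones but also far from each other, with SCS 2 highest. Group means were 1.18 ± 0.54 CPM in naive (SD, n = 3) and 99.2 ± 112.8 CPM in stimulated libraries (SD, n = 3), and the log2 fold change was 6.52 ± 1.28 (SE, edgeR adjusted p = 0.0134). The sham libraries ran from 1.64 to 27.3 CPM with a median of 10.8 CPM, so that the highest sham library was just below SCS 5 and the lowest, sham 2, lay among the naive libraries.

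Both of these calls rest on a small margin. Among fits with fewer libraries, ENSRNOG00000030387 did not pass without naive 2 (adjusted p 0.0515) or naive 3 (0.0719), and ENSRNOG00000024899 did not pass without naive 2 (0.0644), without naive 3 (0.0653) or with the 6 libraries of the contrast alone (0.0571). Over all alternatives with a value, adjusted p ranged from 3.47e-05 to 0.128 for ENSRNOG00000030387 and from 5.4e-09 to 0.123 for ENSRNOG00000024899, by edgeR, limma or DESeq2. The fold changes stayed between 7.28 and 10.5 and between 5.00 and 6.97 on the log2 scale.

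ENSRNOG00000023387 had the largest fall. Its naive libraries held 19.8, 18.1 and 3.71 CPM, and SCS 1, SCS 2 and SCS 5 held 0.542, 0.910 and 0.574 CPM. The stimulated libraries were all low and close together, and the naive libraries were high but uneven, with naive 3 well below the others. The means were 13.9 ± 8.8 CPM (SD, n = 3) and 0.675 ± 0.204 CPM (SD, n = 3), and it fell by 4.36 ± 0.59 on the log2 scale (SE, edgeR adjusted p = 0.00146). The sham libraries, at 0.421 to 0.636 CPM with a median of 0.557 CPM, overlapped the stimulated libraries. The call was lost with limma-voom (log2 fold change -3.61, adjusted p 0.0728) and with limma quality weights (-3.63, adjusted p 0.206), over a range of 7.71e-16 to 0.206 in 21 alternatives.

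ENSRNOG00000018018 fell by 2.04 ± 0.54 on the log2 scale (SE, edgeR adjusted p = 0.0219). CPM in naive 1, naive 2 and naive 3 was 5.22, 0.857 and 2.19, and SCS 1, SCS 2 and SCS 5 held 0.610, 0.589 and 0.750 CPM. Naive 2 was only a little above SCS 5, so the groups did not overlap but came close. The sham libraries ran from 0.565 to 1.40 CPM with a median of 0.696 CPM, on both sides of naive 2. This call was lost in 8 of 21 alternatives, among them without naive 1 (log2 fold change -1.24, adjusted p 0.121), without SCS 1 (0.0614) and without SCS 2 (0.091), over a range of 0.00378 to 0.176 by edgeR, limma or DESeq2.

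**Figure D3:**
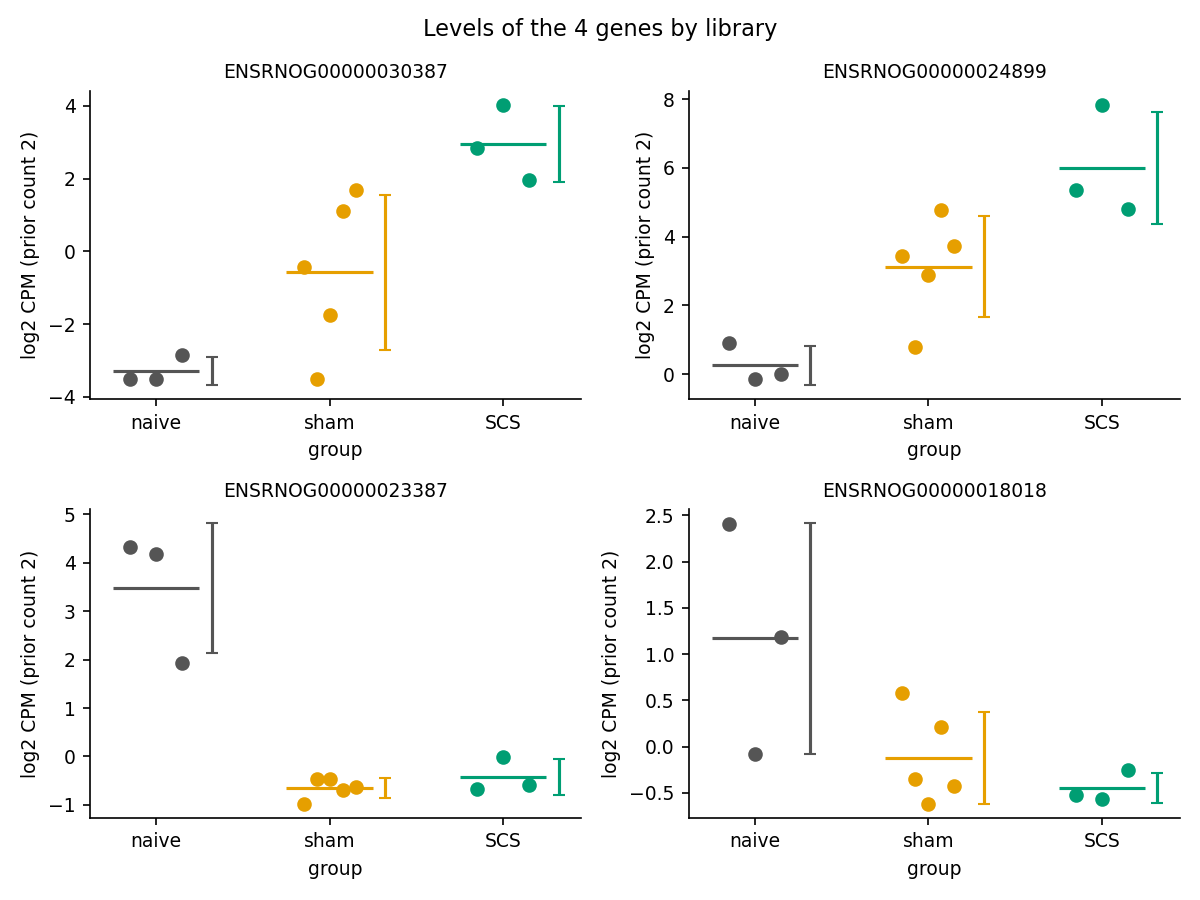
Points are libraries, by group (x axis), with log2 CPM computed with a prior count of 2 (y axis). Horizontal lines are group means and the bars beside them are 1 SD (n = 3 naive, 5 sham, 3 SCS). In each panel the 3 SCS libraries lie apart from the 3 naive libraries, as the rule that chose these genes required. The sham libraries spread more in the 2 higher genes than in the 2 lower genes.

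The fit also gives the other contrasts for these 4 genes, which share libraries with stimulated against naive. In sham against naive, the log2 fold changes were 5.13 ± 1.69 for ENSRNOG00000030387, 3.45 ± 1.29 for ENSRNOG00000024899, -4.62 ± 0.52 for ENSRNOG00000023387 and -1.60 ± 0.46 for ENSRNOG00000018018 (SE). Of these, ENSRNOG00000023387 passed the edgeR test (adjusted p = 0.00534) and the others did not (0.379 to 0.568). In stimulated against sham the values were 2.88 ± 0.85, 3.08 ± 0.84, 0.26 ± 0.68 and -0.44 ± 0.53 (SE), and none passed (adjusted p 0.0877 to 0.877).

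The changed genes as groups took different shares of the libraries. These shares describe genes chosen by the same contrast, so they carry no test. The 1584 higher genes held 6.95%, 6.85% and 7.10% of the counts in naive 1 to 3, and 10.2%, 12.2% and 9.88% in SCS 1, SCS 2 and SCS 5. The 758 lower genes held 12.1%, 12.3% and 11.9% in the naive libraries and 10.3%, 9.19% and 10.5% in the stimulated libraries. The naive libraries were nearly alike in both shares, and SCS 2 was the most distant in both. In the sham libraries, the higher genes held 7.34% to 9.03% and the lower genes 10.5% to 11.6%. Genes chosen for a difference between stimulated and naive libraries can place any further group between them, so these positions are a description only.

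Summed over the higher genes, mean CPM rose by 37571, and 83 genes made up 50% of that. The gene with the largest gain contributed 12% and the top 10 together 25.2%. The summed loss of the lower genes was -21721 CPM, of which 84 genes made up 50%, the gene with the largest loss 3.29% and the top 10 together 18.3%.

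Library by library, the median log2 difference of the higher genes from the naive mean was 0.70 in SCS 1, 0.99 in SCS 2 and 0.59 in SCS 5. For the lower genes it was -0.26, -0.41 and -0.24. SCS 2 was the highest of the 3 stimulated libraries in 1126 of the 1584 higher genes (71.1%) and the lowest in 579 of the 758 lower genes (76.4%). Among genes not past the threshold, SCS 2 held the outer place in 50.1% of those with a fold change above 0 and in 51.5% of those below 0. SCS 5 held it in 6.25% of the higher and 6.6% of the lower genes. Among genes not past the threshold its shares were 22.3% above 0 and 19.7% below 0. The higher genes also varied more within the stimulated group than within the naive group, with a median SD of log2 CPM of 0.23 against 0.10. Within the sham group this median was also 0.23, so the wider spread was not particular to the stimulated libraries. For genes not past the threshold the medians were 0.14 in the stimulated, 0.14 in the sham and 0.09 in the naive group.

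In the sham libraries the same higher genes had median differences from the naive mean of 0.07 (sham 2) to 0.46 (sham 5), and the lower genes of -0.05 (sham 2) to -0.19 (sham 5). Both sets of differences use the naive libraries, and the position of the sham libraries was not tested. The fitted median of the higher genes was 0.28 for sham against naive and 0.46 for stimulated against sham, and those of the lower genes were -0.11 and -0.18. Over the genes not past the threshold the 2 medians were 0.00 and -0.02.

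**Figure D4:**
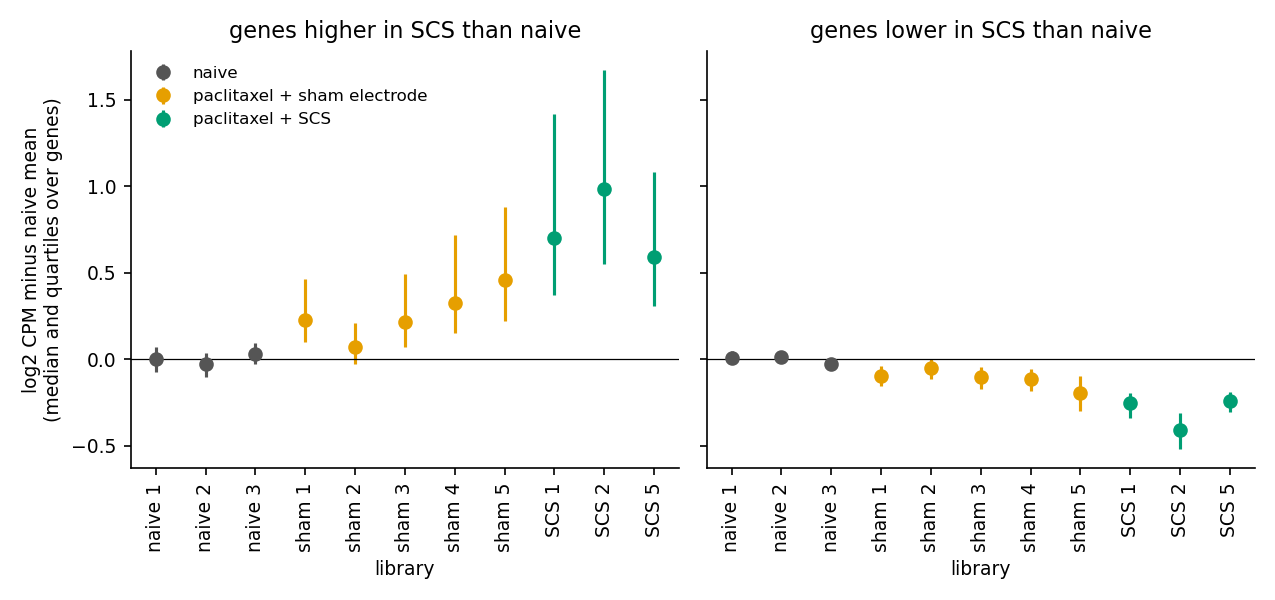
Each point is the median over the genes of a class, and its bar the quartiles, of log2 CPM minus the naive mean (y axis) in 1 library (x axis), for the 1584 higher genes (left) and the 758 lower genes (right). The SCS libraries lie between 0.59 and 0.99 on the left and between -0.41 and -0.24 on the right, by the choice of these genes, and the sham libraries between 0.07 and 0.46 and between -0.19 and -0.05.

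The number of changed genes depended on which library was left out. It was 1226 without naive 1, 1018 without naive 2, 1199 without naive 3 and 1091 without SCS 2, against 2262 without SCS 1 and 2438 without SCS 5. As a share of the calls, the loss was larger among the lower genes: higher genes made up 67.6% of the calls with all libraries, 87% without SCS 2 and 87.9% without naive 2. Of the 1091 genes called without SCS 2, 1067 (97.8%) were among the 2342, which is 45.6% of the 2342. With sham libraries left out one at a time, 2069 to 2786 genes passed.

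**Figure D5:**
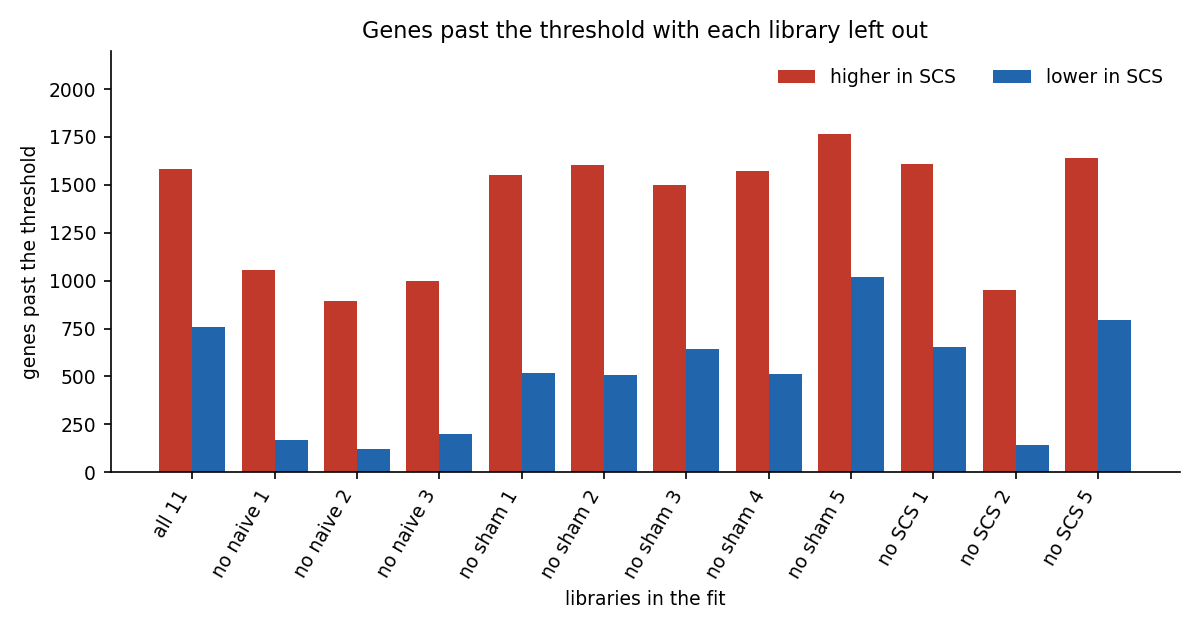
Bars give the number of genes past the threshold (y axis) that were higher (red) or lower (blue) in SCS than in naive libraries, with all 11 libraries and with each library left out (x axis). Lower genes drop from 758 to between 123 and 200 without any 1 naive library and to 142 without SCS 2.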

How the data were processed

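Directional libraries were made from poly(A)-selected RNA (input 1 ug), per the labels' protocols. The values are raw counts per gene ID, as the authors deposited them. Per the submitters' processing notes, the tools were HISAT2, featureCounts and DESeq2, with the build rn6. The sources used here give no versions, annotation release or strand setting, so counts of overlapping, antisense and near-identical genes are uncertain. Columns were matched to samples by title, and 17 further columns were not used.

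The contrast, gene lists and rules were chosen with earlier results of these data known. The 48 gene lists (1133 symbols) could not be applied because 0 IDs were matched. The IDs printed have the 2 highest and 2 lowest log2 fold changes among genes with adjusted p under 0.05, no overlap in log2 CPM and at least 1 mean CPM.

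Low counts were removed with filterByExpr (edgeR 4.0.16, R 4.3.3), leaving 15758 of 32623 IDs (48.3%) and at least 99.925% of the counts in each library. After TMM scaling, all 11 libraries were fitted together by edgeR's quasi-likelihood method, with group as the only term (robust, 8 residual degrees of freedom, biological coefficient of variation 11.2%). Tests were two-sided with Benjamini-Hochberg adjustment over all genes tested. The SE was derived from the log2 fold change and its F statistic. CPM used TMM-scaled sizes, and log2 CPM a prior count of 2. The scripts were tested on simulated data in which every gene and group had the same coefficient of variation, unlike these libraries. The labels do not say that each library came from its own rat, so the p-values reflect the spread among these samples, which may be technical. No naive or stimulated library duplicated another within counting noise (chi-square over degrees of freedom 5.0 to 29.1 within groups). Alternatives used limma 3.58.1 and DESeq2 1.42.0.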

Additional observations from a re-analysis of the deposited data

How the results depend on the processing

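Of 22 alternatives, 16 gave a number of changed genes within 1.5 times the 2342 reported, and in all 22 the higher genes outnumbered the lower (60.4% to 99.4% of the calls). Median-ratio and upper-quartile scaling gave 2272 and 2376 genes, DESeq2 2796, limma-voom 2583 and the 6 libraries of the contrast alone 1996, with 77.7% higher. By construction, the test against a fold of 1.5 gave 311. The count was 1018 to 2786 when each library was left out in turn. With the replicate number as a block (replicate block) 672 genes passed, (586 higher, 86 lower), and 14 against a fold of 1.5; ENSRNOG00000030387 (adjusted p 0.128), ENSRNOG00000024899 (0.123) and ENSRNOG00000018018 (0.0685) did not pass. Same-numbered libraries had deviations correlated at -0.174 to 0.13, and their numbers were not taken as pairs. For the test against a fold of 1.5, alternatives were added after the data were seen: scaling gave 323 and 299 genes, and leaving out 1 library of the contrast gave 54 to 434. The balance by CPM class with 1 library left out was also added then. Causes were not tested. No fold change of the 4 printed genes changed sign. Alternatives for the gene lists were not run, since 0 IDs were matched. The 95% interval lay within 1.5-fold for 0 of 1286 genes under 1 CPM and for 1241 of 4153 between 1 and 10 CPM, and whether depth or spread between libraries set its width was not tested.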
